A study of Drosophila melanogaster with 6 samples.

Results

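The transcripts described here are those whose array probes are named for cDNA clones of a fly ovary library, measured in RNA from adult heads of the Top3b26 mutant and of wild-type flies (WT). They were chosen by name, as non-control probes whose identifier is GM followed by exactly 5 digits, and they were kept where the probe was well above background on all 3 arrays of Top3b26 or of WT. The array held 86 such probes for 62 clones, and 69 probes for 52 clones were kept, out of 23003 probes kept from 32162 on the array. Top3b26 is a mutant allele of the topoisomerase gene Top3beta that was obtained by remobilizing a P-element, and the labels give both groups the strain background W1118, the adult stage and the head as tissue. The wild type is the W1118 stock itself, without the mutation. The mutant is represented by this 1 allele, and the labels give neither the sex nor the age in days. Each group had 3 independently prepared RNA samples from frozen, sieved heads, with 1 one-colour array each. Because nothing in the labels says that the preparations came from separate cultures, the p-values measure the spread between these preparations, which may be technical.

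Fly cDNA clones carry the name of the library they came from, and GM is the prefix of an ovary library. This is general knowledge and is not in the files. A library name says where a clone was isolated and not where its gene is active. In the ovary the nurse cells of the germline fill the oocyte with RNA for the early embryo, so that ovary libraries hold many transcripts of general cell functions that other tissues also use, together with transcripts of follicle cells and germ cells. Top3beta acts on DNA and RNA and works in a complex with TDRD3, and the study asked how its loss changes gene silencing in fly heads.

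Reference annotation gave a gene for 14 of the 62 clones, by a synonym that holds the clone name, and all 14 were kept, with 21 probes. Of these genes, 13 are listed as protein coding and 1, CR43670, as a pseudogene. The files give no position, strand or sequence of a probe, so whether a probe named for a clone reads the annotated exons of that gene is not known here. For the other clones no gene is given, and they are called by their clone names.

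Levels are log2 processed signals after a z-transformation of each array, put back on a log2 scale, so that 0 is the mean of an array and a negative level lies below that mean. The median signal of all non-control spots was 279 to 1604 on the Top3b26 arrays and 461 to 1050 on the WT arrays, and exceeded the negative-control median by factors of 57.2 to 186 and 68.4 to 105. Top3b26 2 had the lowest value and Top3b26 3 the highest by each measure. The arrays lay on 2 slides, Top3b26 1 with WT 1 and WT 2 on slide 1, and Top3b26 2 and Top3b26 3 with WT 3 on slide 2. For 5 marker lists of ovary and germline, follicle cells and yolk, testis, head and males, which hold 66 genes, 0 ovary clone probes carried a matching name. The head label was not checked against markers at other probes of the array. In RNA from whole heads, fewer cells of a type and less RNA per cell cannot be told apart.

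Most ovary clone transcripts were measured in heads. Of the 86 probes, 69 (80.2%) were kept, beside 81.5% of 303 probes named for adult head clones, 56.3% of 142 for adult testis clones and 71.5% of all probes. These shares describe the selection and were not tested. The number of ovary clone probes well above background was 74, 75 and 70 of 86 on Top3b26 1, 2 and 3, and 71, 71 and 72 on WT 1, 2 and 3. Of the 69 probes kept, 68 were well above background on all 6 arrays. The exception was GM09289, which was well above background on every Top3b26 array and on no WT array. Its measured levels were -4.17, -3.05 and -3.99 on Top3b26 1 to 3, and -4.58, -3.74 and -4.24 on WT 1 to 3, so that the groups overlapped. GM09289 was kept through its Top3b26 arrays alone, so its difference is given as a description, 0.45, or 0.11 without Top3b26 2. Of the 17 probes left out, 9 were well above background on no array and the other 8 on at most 4 arrays. They include every probe of 10 clones.

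None of the 69 ovary clone probes passed the test between Top3b26 and WT. With limma and Benjamini-Hochberg adjustment over all 23003 probes, 0 of the 69 reached an adjusted p of 0.05, which 0.882% of all probes reached (0.17% higher and 0.713% lower in Top3b26). The lowest adjusted p among the 69 was 0.28. An unadjusted p under 0.05 was found for 7 of the 69 (10.1%), 3 higher and 4 lower in Top3b26, beside 11.2% of all probes. A plain equal-variance test of the same values gave 0 probes after Benjamini-Hochberg adjustment, beside 0.378% of all, and 5 (7.25%) without it, beside 12.3% of all. The study's methods set several limits, of which a false discovery rate of 0.3 and a fold change of 1.5 were applied here to the limma fit. The methods also accept a z-ratio of 1.5 in place of that fold change, and the z-ratio was not used here. Their other limits, on the p-values of their own tests between groups, on detection and on an average signal of at least 0 in each group, were not applied. By the limits on false discovery rate and fold, 1 of the 69 (1.45%) passed, beside 6.07% of all probes. That probe was 1 of those for GM07526 and was higher in Top3b26. Of all probes, 1.69% were past these limits and higher. On the level scale used here this probe averaged -0.67 in Top3b26 and -1.84 in WT, both below 0. This count depended on single arrays. It was 29 of 69 (42.0%) without Top3b26 2, where 40.6% of all probes passed, and 2 (2.90%) without Top3b26 3, beside 6.35% of all. Without any one of the other 4 arrays it was 0, beside 0.93% to 2.13% of all.

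The differences of the ovary clones had a median size of 0.31, beside a median standard error of 0.37. They ran from -1.14 to 1.25 (Top3b26 minus WT, log2), with 53 of the 69 (76.8%) under 0.5 in size beside 67.9% of all probes, and 4 over 1. The median difference was -0.25, beside -0.15 over all probes tested, and 24 of the 69 (34.8%) were above 0, beside 37.1%. The shift below 0 depended on single arrays and on the scaling. The median was -0.50 without Top3b26 2, beside -0.37 over all probes, and 0.03 without Top3b26 3, beside -0.02. When each array was instead shifted so that its deviations from the probe means had a median of 0, with no division by the SD, the median was -0.07 for the ovary clones and 0.03 for all probes, with 31 of the 69 above 0. The standard error of a difference was between 0.21 and 0.92, with a median of 0.37, and the 95% interval lay within 1 of 0 for only 14 probes (20.3%, beside 30.9% of all). For the other 55 probes the interval reached a change of 1 on the log2 scale, which is 2-fold, in at least one direction.

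**Figure D1:**
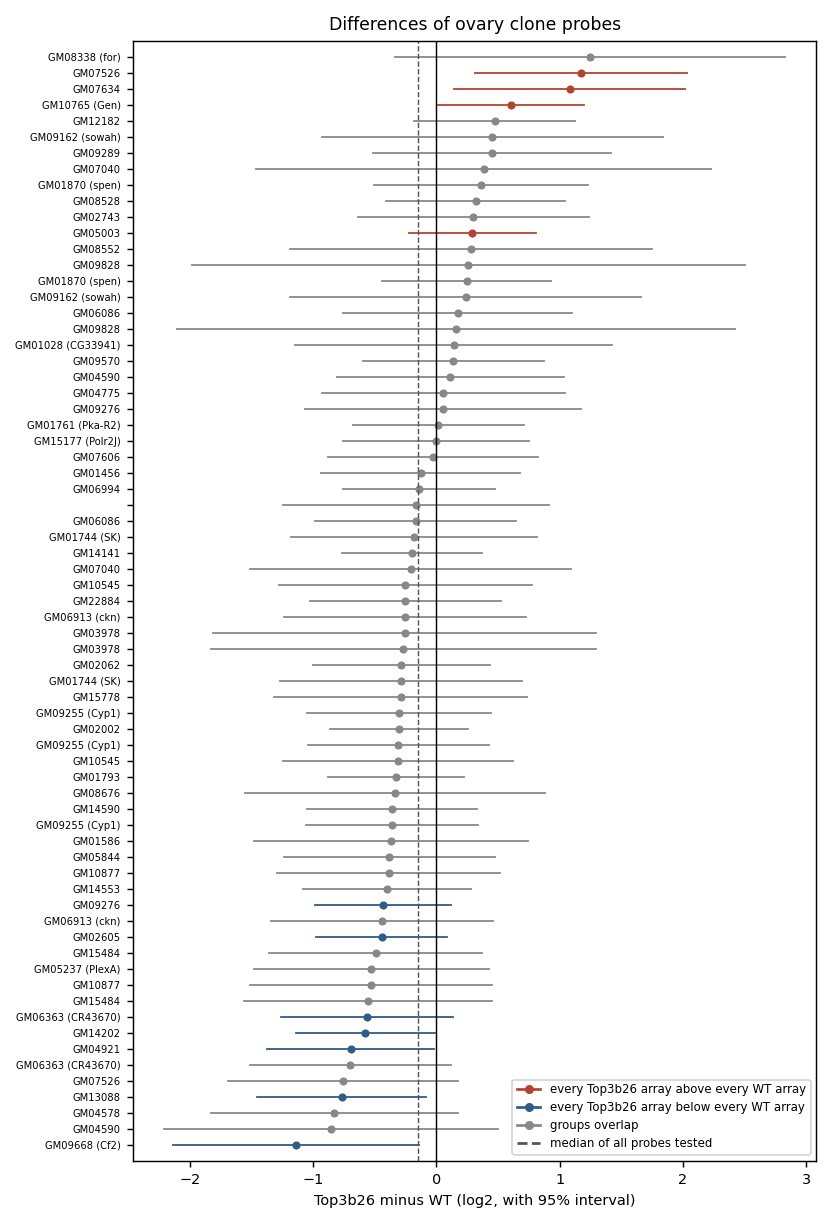
Each row is 1 of the 69 ovary clone probes, with its difference between Top3b26 and WT on the log2 scale (point) and the 95% interval from limma (line), in order of the difference, with 1 row left without a name. Red and blue mark the 4 probes for which every Top3b26 array lay above every WT array and the 7 for which every one lay below, and the dashed line is the median of all probes tested, -0.15.

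Every Top3b26 array lay above every WT array for 4 probes and below it for 7. Together these are 11 of 69 (15.9%), beside 19.8% of all probes, of which 4.86% were higher and 15% lower. The groups overlapped for the other 58. The count was 44 of 69 (63.8%) without Top3b26 2, where 58.2% of all probes did not overlap, and 17 (24.6%) without WT 1, beside 30.1%. Under median-difference scaling, the shift to a median deviation of 0, it was 21 (30.4%, beside 23.3% of all), under quantile normalization 7 (10.1%, beside 20.8%) and under normexp 6 (8.70%, beside 18.6%).

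Among the probes with the higher levels in Top3b26, the largest difference was that of GM08338, the clone of for. This gene, foraging, encodes a cGMP-dependent protein kinase known for its part in larval feeding behaviour. Its levels were -2.25, -0.59 and -3.00 on Top3b26 1 to 3, and -3.64, -2.89 and -3.06 on WT 1 to 3. Top3b26 3 lay between the WT arrays, so the groups overlapped, and Top3b26 2 stood far above the rest. The difference was 1.25 ± 0.64 (SE, 95% interval -0.34 to 2.83, n = 3 arrays per group) with a limma adjusted p of 0.57. It was 0.57 without Top3b26 2, and 0.51 with normexp background correction.

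GM07634, a clone with no gene given, separated the groups more clearly. Its levels were 5.43, 5.92 and 4.55 on Top3b26 1 to 3, and 4.16, 4.39 and 4.11 on WT 1 to 3. All 3 mutant arrays were above all WT arrays, Top3b26 3 by the least. The difference was 1.08 ± 0.38 (95% interval 0.14 to 2.02), which is 2.11-fold, with a limma adjusted p of 0.36. Within the slides it was 1.15 on slide 1 and 1.13 on slide 2.

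Gen encodes an XPG-family nuclease that resolves Holliday junctions in DNA repair. The clone of Gen, GM10765, had levels of 0.78, 0.99 and 0.65 on Top3b26 1 to 3, and -0.13, 0.45 and 0.28 on WT 1 to 3. The groups did not overlap, and the 3 mutant arrays lay close together. The difference was 0.61 ± 0.24 (95% interval 0.02 to 1.20), with a limma adjusted p of 0.43, and it was 0.62 and 0.54 on slides 1 and 2. GM05003, which had the smallest standard error of all 69, also had no overlap, with levels of -0.90, -0.88 and -0.54 on Top3b26 1 to 3, and -1.18, -1.09 and -0.93 on WT 1 to 3. Its difference was only 0.29 ± 0.21, with a limma adjusted p of 0.70.

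On the lower side, Cf2 had the largest difference. Cf2, chorion factor 2, is a zinc-finger transcription factor first described as a regulator of an eggshell gene in follicle cells. The levels of its clone GM09668 were 2.03, 2.87 and 1.41 on Top3b26 1 to 3, and 3.00, 3.38 and 3.36 on WT 1 to 3. All mutant arrays were below all WT arrays, but the mutant arrays were spread over a wider range than the gap between the groups. The difference was -1.14 ± 0.40 (95% interval -2.14 to -0.14), with a limma adjusted p of 0.37. It was -1.16 on slide 1 and -1.22 on slide 2, and the adjusted p was lowest, at 0.063, without Top3b26 2.

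GM13088 had levels of 2.02, 2.14 and 1.32 on Top3b26 1 to 3, and 2.48, 2.64 and 2.66 on WT 1 to 3. Its difference was -0.77 ± 0.28, with a limma adjusted p of 0.38. GM04921 had levels of -0.63, -0.52 and -1.06 on Top3b26 1 to 3, and -0.41, 0.04 and 0.25 on WT 1 to 3, and differed by -0.70 ± 0.28 (limma adjusted p 0.43). Neither clone has a gene given, and for each the groups did not overlap. Every Top3b26 array was below every WT array for 4 other probes. These were those of GM14202 and GM02605, 1 of the 2 probes of GM09276 and 1 of the 2 probes of CR43670. Their differences lay between -0.58 and -0.43, with limma adjusted p between 0.435 and 0.574. At the other probe of GM09276 the groups overlapped, with a difference of 0.05 and a limma adjusted p of 0.98.

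CR43670, the pseudogene, was read by 2 probes of clone GM06363. The first had levels of 0.53, 0.96 and -0.15 on Top3b26 1 to 3, and 0.95, 1.29 and 1.19 on WT 1 to 3. The second had levels of 0.33, 0.61 and -0.28 on Top3b26 1 to 3, and 0.67, 0.88 and 0.79 on WT 1 to 3. The probes thus followed each other across the arrays, although Top3b26 2 just exceeded WT 1 at the first. The differences were -0.70 ± 0.33 and -0.56 ± 0.28, with limma adjusted p of 0.54 and 0.56. Pseudogenes can share sequence with a parent gene, which leaves the source of this signal uncertain.

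**Figure D2:**
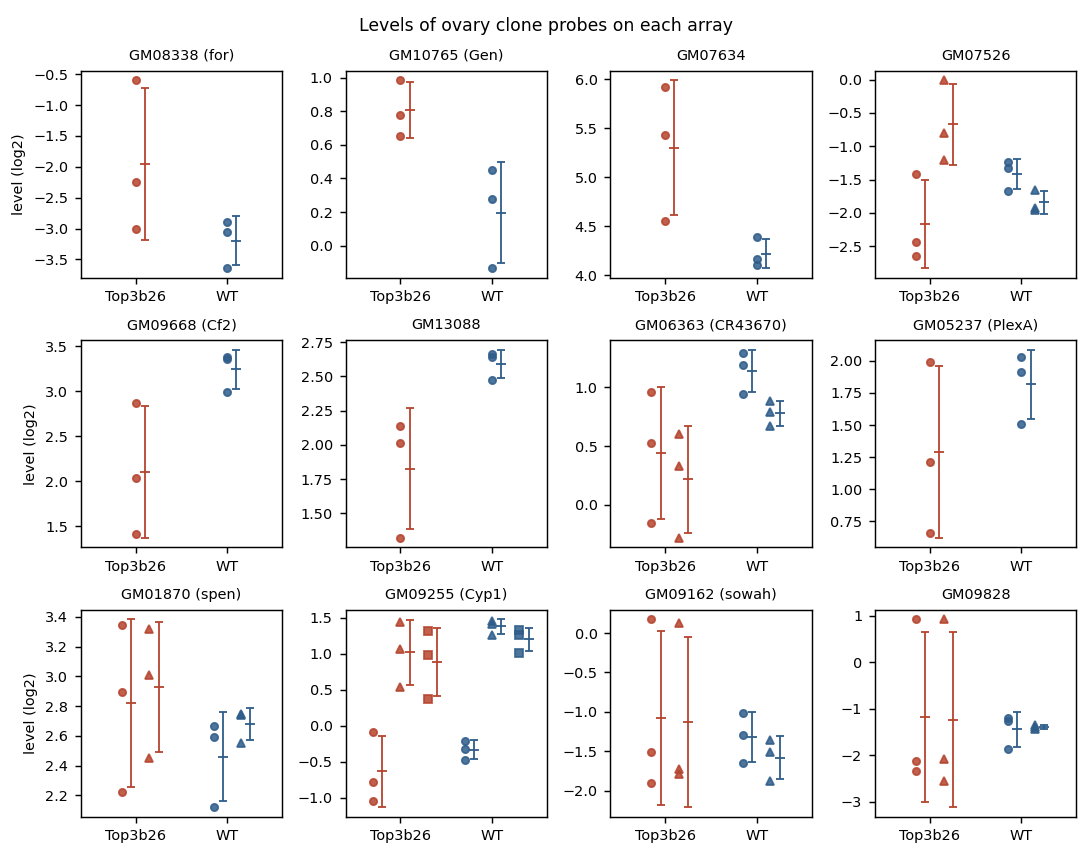
Level (log2, relative to the mean of the array) of 12 clones on each of the 3 Top3b26 arrays (red) and the 3 WT arrays (blue), with the mean and SD beside the points. Different marker shapes are different probes of a clone, and the vertical scale differs between panels. The mutant arrays are spread more widely than the WT arrays in every panel except that of Gen.

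The remaining genes with a name were ordered by what they do. The first group acts in neurons and in signalling. SK encodes a calcium-activated potassium channel, and its 2 probes had differences of -0.29 ± 0.40 and -0.18 ± 0.40. At the brighter of them the WT arrays lay between 2.81 and 2.85, whereas the Top3b26 arrays had levels of 2.48, 3.33 and 1.83. PlexA encodes a plexin, a receptor for semaphorins in axon guidance, and had levels of 1.21, 1.99 and 0.66 on Top3b26 1 to 3, and 1.51, 1.91 and 2.03 on WT 1 to 3. Its difference was -0.53 ± 0.39. The groups overlapped for SK and PlexA, and in each Top3b26 3 was the lowest array.

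The scaffold protein gene ckn, named after mammalian Caskin, had differences of -0.44 ± 0.36 and -0.25 ± 0.40 at its 2 probes. Pka-R2 encodes a regulatory subunit of the cAMP-dependent protein kinase. Its levels were 3.52, 3.87 and 3.09 on Top3b26 1 to 3, and 3.19, 3.63 and 3.61 on WT 1 to 3, with a difference of 0.01 ± 0.28 (95% interval -0.68 to 0.71). A change of 1 in either direction thus lay outside the interval for Pka-R2.

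The second group acts in the making and handling of RNA. Polr2J encodes a subunit of RNA polymerase II, and had levels of 2.51, 3.09 and 2.12 on Top3b26 1 to 3, and 2.35, 2.67 and 2.71 on WT 1 to 3. Its difference was 0.00 ± 0.31 (95% interval -0.76 to 0.76). Top3b26 2 was its highest array and Top3b26 3 its lowest. The gene spen, which encodes a large nuclear protein with RNA-recognition motifs, had differences of 0.36 ± 0.35 and 0.25 ± 0.28 at its 2 probes.

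Cyp1 encodes a cyclophilin, an enzyme that isomerizes prolyl bonds. It was the only named gene with 3 probes, and these gave nearly the same difference, -0.30 ± 0.30, -0.36 ± 0.28 and -0.31 ± 0.30. For sowah and CG33941, whose roles are not given here, the differences were 0.24 ± 0.58 and 0.45 ± 0.56 at the 2 probes of sowah and 0.14 ± 0.52 for CG33941. The limma adjusted p of the probes of SK, PlexA, ckn, Pka-R2, Polr2J, spen, Cyp1, sowah and CG33941 were all 0.706 or more, and the groups overlapped at every probe.

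The brightest ovary clone probes had no gene name. GM15778 had levels of 8.70, 8.99 and 7.71 on Top3b26 1 to 3, and 9.11, 8.85 and 8.31 on WT 1 to 3, with a difference of -0.29 ± 0.42. The brighter probe of GM15484 had levels of 7.25, 8.04 and 6.94 on Top3b26 1 to 3, and 7.94, 8.17 and 7.60 on WT 1 to 3, with a difference of -0.49 ± 0.35. GM02002 and GM02062 had differences of -0.30 ± 0.23 and -0.29 ± 0.29. None of these was called, and levels of different probes cannot be ranked as amounts of RNA because each probe binds with its own strength.

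Under the z-transformation, the spread among mutant preparations was larger than the difference between genotypes. The median size of the difference between genotypes was 0.31, while the median SD over the 3 arrays of a group was 0.61 in Top3b26 and 0.22 in WT. This was not particular to ovary clones. The same 3 values were 0.34, 0.54 and 0.23 over all probes and 0.35, 0.67 and 0.27 over head clone probes. The SD was larger in Top3b26 for 66 of the 69 probes (95.7%), beside 88.8% of all probes. The highest of the 6 arrays was Top3b26 2 for 44 probes (63.8%, beside 44.8% of all), and the lowest was Top3b26 3 for 54 (78.3%, beside 58.1%). Among the head clone probes these shares were 63.6% and 62.8%. Top3b26 3 was below Top3b26 2 for 66 probes, with a median gap of -1.09, beside -0.74 over all probes and -1.18 over 247 head clone probes. The exceptions were the 2 probes of GM04590 and GM05003.

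Wild-type arrays also stood apart from each other. WT 1 was below WT 2 for 59 of the 69 probes (85.5%, beside 68.9% of all), with a median gap of -0.31, and 58 probes (84.1%, beside 62.4% of all) were lower both on Top3b26 3 than on Top3b26 2 and on WT 1 than on WT 2. The median level of the ovary clones was 0.98, 1.38 and 0.55 on Top3b26 1 to 3, and 1.01, 1.33 and 1.20 on WT 1 to 3. The median of 80 probes named for testis clones was 0.94, -1.70 and 1.94 on Top3b26 1 to 3, and averaged -0.45 ± 0.66 on the WT arrays (SD, n = 3). Testis clones were thus lowest on Top3b26 2, where ovary clones were highest, and highest on Top3b26 3, where ovary clones were lowest. Ovary clones were not alone in this. Head and embryo clones were likewise highest on Top3b26 2 (medians 1.44 and 1.36) and lowest on Top3b26 3 (0.58 and 0.61). Clones of cultured cells were also higher on Top3b26 2 (2.81) than on Top3b26 3 (2.18). Clones of larvae and pupae went the other way, with -0.095 on Top3b26 2 and 0.64 on Top3b26 3. The signal over background, like the testis clones, was lowest on Top3b26 2 and highest on Top3b26 3. The part of testis RNA and of array brightness in the gaps of the ovary clones was not tested.

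The size of these gaps depended on the scaling. With the shift to a median deviation of 0, the gap between Top3b26 3 and Top3b26 2 had a median of -0.37 for the ovary clones, -0.44 for the head clones and -0.03 for all probes. Top3b26 3 was then below Top3b26 2 for 55 ovary clone probes (79.7%, beside 51.5% of all), and WT 1 below WT 2 for 43 (62.3%, beside 49.7%), with both for 37 (53.6%, beside 33.9%). The median SD of the ovary clones was then 0.30 in Top3b26 and 0.17 in WT. The count with Top3b26 3 as the lowest array was 19 (27.5%, beside 22.6%).

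**Figure D3:**
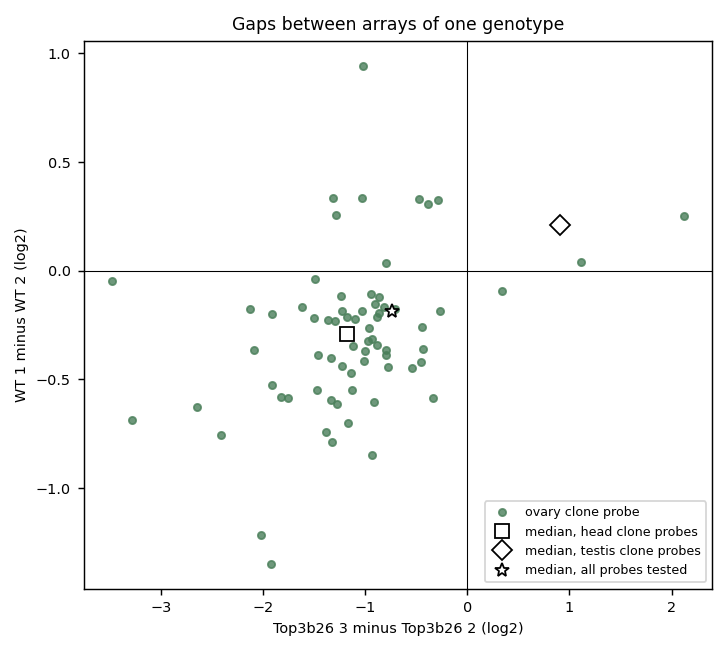
Each point is 1 of the 69 ovary clone probes, placed by its level on Top3b26 3 minus that on Top3b26 2 (horizontal) and by its level on WT 1 minus that on WT 2 (vertical), both on the log2 scale. The probes lie mostly in the lower left, where 58 of 69 fall. The medians of the head clones and of all probes tested (-0.74 and -0.19) lie there too, whereas the median of the testis clones (0.91 and 0.21) lies in the upper right.

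GM09828 carried the widest gap. Its first probe had levels of -2.12, 0.93 and -2.34 on Top3b26 1 to 3, and -1.87, -1.19 and -1.25 on WT 1 to 3. The second had levels of -2.07, 0.93 and -2.55 on Top3b26 1 to 3, and -1.44, -1.39 and -1.34 on WT 1 to 3. At both probes Top3b26 2 stood apart from the other 5 arrays, by more than 2 on the log2 scale. The differences between genotypes, 0.26 ± 0.91 and 0.16 ± 0.92, had the largest standard errors of the ovary clones, and without Top3b26 2 they were -0.80 and -0.92. Top3b26 2 was above the other 5 arrays for 44 of the 69 probes, among them the 2 kept probes of GM07040 and the 2 of sowah. The dimmer of these GM07040 probes had levels of -3.41, -0.93 and -3.58 on Top3b26 1 to 3, and -3.45, -2.82 and -2.81 on WT 1 to 3. In contrast, a probe of GM04590 had levels of -0.17, -1.17 and 0.95 on Top3b26 1 to 3, and 0.97, 0.72 and 0.49 on WT 1 to 3, so that Top3b26 2 was its lowest array. It was the only probe among the ovary clones for which Top3b26 3 exceeded Top3b26 2 by more than 2, at 2.12.

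Where a clone was read by more than 1 probe, the probes could be set against each other. Of 16 such clones, the differences had the same sign at every probe for 11 (68.8%), beside 73.9% of 3917 identifiers with several probes on the whole array. The median distance between the lowest and the highest difference of a clone was 0.14, beside 0.21 over those 3917, and for GM03978 it was 0.01. GM03978 varied widely between arrays. Its probes of GM03978 had levels of -1.18, 0.55 and -1.37 and of -0.98, 0.81 and -1.22 on Top3b26 1 to 3, and of -1.19, 0.15 and -0.15 and of -0.89, 0.32 and -0.05 on WT 1 to 3. They followed the same course over all 6 arrays.

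GM07526 was the clone whose probes disagreed most. At the probe that passed the limits on false discovery rate and fold, the levels were -1.20, -0.01 and -0.80 on Top3b26 1 to 3, and -1.92, -1.96 and -1.65 on WT 1 to 3. Every mutant array was above every WT array, with a difference of 1.17 ± 0.35 (95% interval 0.31 to 2.03), or 2.25-fold, and the lowest limma adjusted p of the 69, 0.28. With normexp and quantile normalization the difference was 0.47, with a limma adjusted p of 0.71. At the other probe the levels were -2.65, -1.41 and -2.44 on Top3b26 1 to 3, and -1.33, -1.67 and -1.23 on WT 1 to 3. There 2 of the 3 mutant arrays were below every WT array, with a difference of -0.76 ± 0.38 and a limma adjusted p of 0.55. The distance between the probes, 1.93, was the largest among the 16 clones, and the difference between them was not tested. GM04590 followed with 0.97, its differences being -0.86 ± 0.55 and 0.11 ± 0.37.

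**Figure D4:**
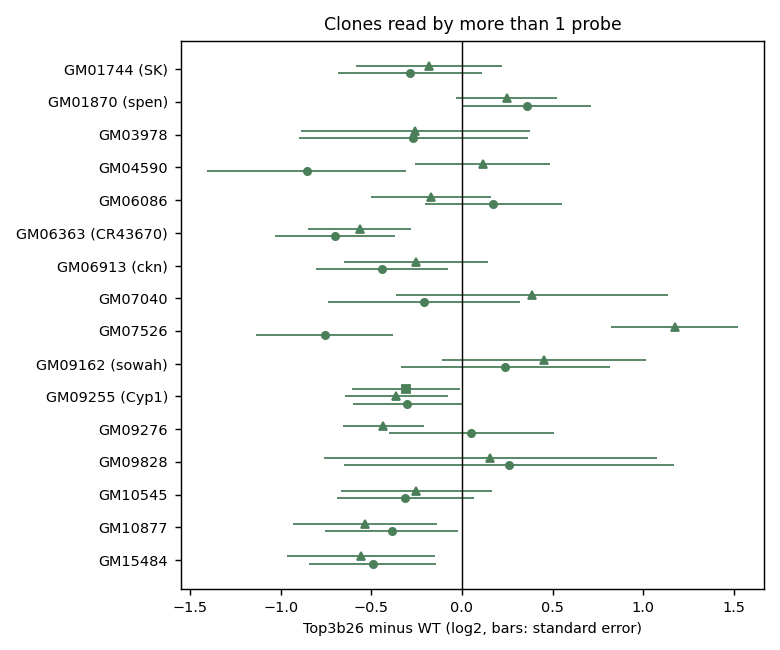
Difference between Top3b26 and WT (log2, bars are the standard error from limma) for the 16 ovary clones with more than 1 probe tested, 1 marker per probe. The probes of most clones lie together, as for Cyp1 between -0.36 and -0.30, while those of GM07526 lie at 1.17 and -0.76.

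Within the slides, the median difference of the ovary clones was -0.28 on slide 1 and -0.22 on slide 2, beside -0.17 and -0.19 over all probes. Slide 1 held 1 mutant and 2 WT arrays and slide 2 held 2 mutant arrays and 1 WT array, so these values have no test. Of the 69 probes, 41 (59.4%) were lower in Top3b26 on each slide, beside 53.6% of all probes. On each slide 12 (17.4%) were higher, beside 23% of all, and 16 (23.2%) changed sign between slides, beside 23.4% of all. With the slide as a block, 0 of the 69 were called, beside 0.191% of all probes, and 0 passed the limits on false discovery rate and fold, beside 1.83%.

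Clones of other libraries were measured on the same arrays and give a background for these counts. At an adjusted p of 0.05, 7 of 247 head clone probes (2.83%) and 1 of 80 testis clone probes (1.25%) were called. The shares called were 1.56% for embryo clones, 4.69% for clones of cultured cells and 0% for clones of larvae and pupae, beside 0.882% of all probes. The groups did not overlap for 15.4% of head clone probes and 16.2% of testis clone probes, beside 15.9% of the ovary clone probes. This share was higher for embryo clones (17.7%), clones of larvae and pupae (27.3%), clones of cultured cells (32.8%) and all probes (19.8%). The median difference was -0.09 for head clones and 0.50 for testis clones, beside -0.25 for ovary clones, and no test was made between the libraries.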

How the data were processed

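Total RNA of 3 Top3b26 and 3 WT head preparations was labeled with Cy3 and hybridized to Agilent 4x44K Drosophila V2 arrays. Per the file headers, the deposited intensity values are processed signals from Feature Extraction 11.5.1.1, with the background subtracted and no normalization between arrays, and the array design cites build dm3. The authors also deposited score values, z-scores of log signal over all 45019 spots (scale and centring were checked, largest difference 0.00502).

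The log2 signal was centered and scaled by the SD of each array over 43602 non-control spots, and multiplied by 3.89, the SD averaged over arrays. Outlier spots were left out, there were 0 saturated spots, and spots of a probe were averaged. A probe was kept where all its spots were well above background on the 3 arrays of 1 group. R 4.3.3 and limma 3.58.1 (lmFit, eBayes, no covariate) compared Top3b26 with WT, adjusted over 23003 probes. In simulations of this comparison on 22951 probes, the share of 200 changed probes recovered was 0% for a log2 change of 1, 34.5% for 2 and 82% for 4. The simulated noise was independent between probes, with 1 SD per probe for both groups and the real SDs in shuffled order. The wider spread of the Top3b26 arrays and shifts shared by many probes were not simulated, so these shares may not hold for the real arrays. With 3 arrays per group, their number limits the precision. Groups and replicate numbers came from the labels.

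The members, marker lists, alternatives and naming rule were chosen with earlier results of these data known. The rule named probes past the test or the limits on false discovery rate and fold, the largest differences without overlap between groups, probes with a bound, the 4 with the widest range, the 4 brightest, the 4 with the smallest error, 5 clones with several probes, and all clones with a gene name, of which 1 is not reported here. GM04921, GM05003 and GM09289 entered by it. GM14202 and the second probe of GM07526 were chosen after their values were seen. Names came from RefSeq (Release 6), whose coordinates were not used. Normexp used the median signal, as a mean signal column was not used here. Probe sequences were not analysed here.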

Additional observations from a re-analysis of the deposited data

How the results depend on the processing

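No ovary clone probe reached an adjusted p of 0.05 under any of the 11 alternatives with adjustment, nor with any 1 array left out (0 to 0), although 13 to 531 of all probes did. By a plain equal-variance test without adjustment, 5 were past 0.05 (7.25%, beside 12.3% of all). By the limits on false discovery rate and fold, the 1 probe became 6 under the 75th percentile shift (8.70%, beside 8.50% of all) and 7 under median-difference scaling (10.1%, beside 9.42%). It became 0 with a block for slide, with the replicate block, when dim probes were kept and by the plain equal-variance test after Benjamini-Hochberg (beside 1.83%, 2.68%, 2.46% and 6.20% of all). With 1 array left out the count was 0 to 29, the highest without Top3b26 2 (42.0%, beside 40.6% of all). Under quantile normalization, normexp and a variance trend the 1 probe was that of GM07634 instead of GM07526. The 11 probes without overlap between groups became 7 under quantile normalization, 21 under median-difference scaling and 6 under normexp (beside 20.8%, 23.3% and 18.6% of all), and 11 to 44 with 1 array left out, the highest without Top3b26 2 (63.8%, beside 58.2%). The median difference, -0.25, was -0.50 to 0.03 with 1 array left out, the lowest without Top3b26 2 and the highest without Top3b26 3. These changes and those under the other alternatives were smaller than the spread between arrays (0.31). For these values the cause was not tested. The labels do not say whether the replicate numbers pair the arrays. Correlations across probes between the deviations of arrays with one number were 0.56, 0.59 and -0.37. Arrays with different numbers were not compared, so these values do not settle it. Each replicate number holds 1 Top3b26 and 1 WT array, so a replicate block cannot change the difference of a probe measured on all 6 arrays. The median difference of -0.25 with that block was therefore fixed by the design. The counts of gaps between arrays under other scalings were chosen after seeing the data. Signal over background, lowest on Top3b26 2 (57.2), limits the dim probes on that array.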
